A study of Mus musculus with 4 samples.

Results

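The transforming growth factor beta (TGF-beta) ligands, their receptors and Smad proteins were followed in mouse alveolar macrophages with and without Bach2. The inhibitor Ski and the target Tgfbi were followed with them. The 10 genes were chosen by name for their place in this pathway: Tgfb1, Tgfb2, Tgfb3, Tgfbr1, Tgfbr2, Smad2, Smad3, Smad7, Ski and Tgfbi. They are 10 of 19751 genes on the array, and 15122 genes were measured. TGF-beta is secreted in a latent complex and, once released, binds the receptor subunit encoded by Tgfbr2, which activates the one encoded by Tgfbr1. The receptor phosphorylates Smad2 and Smad3, which join Smad4 and enter the nucleus, while Smad7 and Ski restrain the signal. TGF-beta signalling through Tgfbr2 is known to be needed for alveolar macrophages to develop and persist, in part through Pparg.

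RNA came from alveolar macrophages of wild-type (WT) mice and of mice lacking Bach2 (Bach2KO, also written Bach2-/- in the labels), a transcription repressor. No treatment is named, and strain, age and sex are not given in the sources used here. Cells from 8 WT mice, and from 3 or 4 Bach2KO mice (the series design text and the treatment protocol differ), were gathered and sorted by flow cytometry. Each genotype gave 1 RNA sample, which was split in 2 and hybridised to 1-colour Agilent arrays, which gave 2 WT and 2 Bach2KO arrays on 1 slide. The arrays of a genotype are therefore technical repeats. There is no replicate check of the genotypes and no p-value is given, and each SD after ± is over 2 arrays of 1 RNA sample.

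Values are log2 signals relative to the 75th percentile of the array, so that a value of 0 lies at that percentile and a probe's level cannot be set against another probe's. A gene was called higher or lower in Bach2KO where each Bach2KO array was at least 2-fold above, or below, each WT array (4 pairs). Where a probe was not well above background in 1 genotype, its fold is given as a lower bound, which also had to reach 2-fold. The bound sets that genotype at the lowest signal well above background on each array, or at its own signal if higher. Some signals not well above background exceed that lowest signal, so the bound is a working limit. By this rule 14.3% of the 15122 measured genes were called, 8.36% higher and 5.9% lower. The arrays carry probes for added control RNA (spike-in probes), and 9 of them exceeded background well on every array. Scaling to these 9 (spike-in scaling) as an alternative shifted every difference by -0.76. The median over all genes then became -0.70 in place of 0.06, and 15.3% rather than 58.6% of the calls were higher. Median centring shifted every difference by -0.10. The only Bach2 probe read -6.32 and -6.28 in WT and -5.16 and -8.13 in Bach2KO, well above background on 1 array of each genotype, so it gave no check of the labels. Defining markers of alveolar macrophages were well above background on all 4 arrays for 13 of 13 genes listed. Of these, 2 were higher, 4 lower and 7 neither, and the lower ones included Siglecf (12.6-fold) and Krt79 (16.8-fold). With spike-in scaling 0 were higher (Fabp4 at 0.82 and Fabp5 at 0.79) and 4 lower, and Fabp5 was also not called with quantile normalization (1.16). The summed signal of the 13 markers was 1348 and 1216 times the 75th percentile in WT and 1249 and 1212 times in Bach2KO. Fabp5 had the largest change in that sum (109 to 320). With spike-in scaling the Bach2KO sum was 0.566 times that of WT.

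Of the 10 genes, 1 was called lower (Tgfb2), 1 higher (Smad3) and 8 neither. That is 20.0% of the list against 14.3% of all measured genes. All 10 were measured, 8 of them well above background on all 4 arrays. Tgfb2 and Smad3 were measured through the brighter genotype alone. They would not have entered if both genotypes had been as dim as the dimmer 1. The median difference was -0.02 over the 10 genes and 0.06 over all measured genes.

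The upstream sequences of both called genes are shown here, as the stretches in which a Bach-type or Smad-type motif would first be looked for. They are the 250 bases before the transcription start in RefSeq (build GRCm38.p6), written 5′ to 3′ on the strand of the gene, with matches in capitals. The motifs searched on both strands were TGANTCA, the core that Bach-Maf and AP-1 dimers recognise, and CAGAC, the short Smad element, and the letters of the motifs do not overlap in these windows. The Tgfb2 window is at chr1:186705990-186706239 (minus strand) and the Smad3 window at chr9:63757995-63758244 (minus strand).
Tgfb2: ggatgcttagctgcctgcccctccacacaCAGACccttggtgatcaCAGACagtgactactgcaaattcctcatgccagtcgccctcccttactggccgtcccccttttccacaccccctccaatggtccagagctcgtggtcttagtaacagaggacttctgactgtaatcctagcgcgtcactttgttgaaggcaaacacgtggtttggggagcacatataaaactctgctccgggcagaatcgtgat
Smad3: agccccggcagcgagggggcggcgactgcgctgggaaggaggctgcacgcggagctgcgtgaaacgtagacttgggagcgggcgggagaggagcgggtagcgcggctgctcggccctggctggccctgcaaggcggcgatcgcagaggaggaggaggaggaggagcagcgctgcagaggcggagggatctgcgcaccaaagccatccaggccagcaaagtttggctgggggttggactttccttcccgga
CAGAC began 221 and 204 bases before the start of Tgfb2 and did not occur in the Smad3 window, and TGANTCA occurred in neither. Of 32851 RefSeq promoter windows of this length, 42.2% held CAGAC and 6.75% held TGANTCA. Windows were found for 7 of the 10 genes, of which 4 held CAGAC (Tgfb2, Tgfbi, Tgfbr2 and the second listed start of Tgfbr1) and 0 held TGANTCA. A match is a description of these letters and not a binding site.

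Tgfb2, the ligand known chiefly from development and from epithelial and stromal cells, was readily detected in WT and not detected in Bach2KO. Its brighter probe (transcript NM_009367) had processed signals of 752 and 949 in WT and of 3.16 and 3.38 in Bach2KO. In log2 values these were -0.75, -0.67, -8.36 and -8.18. Both Bach2KO arrays lay below every signal that was well above background on them, whereas both WT arrays lay well above background, so the genotypes were far apart. After background subtraction the same probe gave 792 and 999 in WT against 1.89 and 3.53 in Bach2KO.

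Because the Bach2KO signal was not above background, the size of the Tgfb2 difference has a lower bound only. The bound is the WT mean (-0.71 ± 0.06, SD, n = 2 arrays) against the lowest signals well above background on the Bach2KO arrays, and by it Tgfb2 was at least 41.2-fold lower in Bach2KO. With normexp background correction, which adds an offset of 50 to every signal, the bound was 9.61-fold, and with spike-in scaling it was 69.9-fold. Of 113 genes known to be lower only as a bound, 7 had a larger bound than Tgfb2. The second probe of the same transcript read 281 and 332 in WT and 3.04 and 3.22 in Bach2KO, which made it at least 14.9-fold lower (4.18-fold with normexp and 25.3-fold with spike-in scaling). Both probes of Tgfb2 therefore showed the loss of signal, each on both Bach2KO arrays. In a bulk RNA sample, fewer cells that express Tgfb2 and less Tgfb2 RNA per cell cannot be told apart.

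Among the epithelial markers listed, only Epcam was called lower. It was at least 98.1-fold lower in Bach2KO (19.5-fold with normexp and 166-fold with spike-in scaling). Of the 9 epithelial markers measured, of 11 on the array, 2 were higher (Scgb1a1 and Sftpb), 1 was lower and 6 were neither. Among all measured genes 8.36% were higher and 5.9% lower. With spike-in scaling 0 were higher (0.85 and 0.84), and the call of Sftpb was also lost with quantile normalization (1.43), with normexp (0.56) and without WT array 2. The summed epithelial marker signal was 3.93 and 4.09 times the 75th percentile in WT and 5.03 and 4.90 times in Bach2KO, and Sftpa1 and Krt8 were not well above background on any array. The gene with the largest change in signal in that sum was Cdh1, itself not called, and with spike-in scaling the Bach2KO sum was 0.729 times that of WT. The part of other cells in the Tgfb2 difference was not tested.

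The other ligands differed little. Tgfb1, the main TGF-beta isoform of immune cells, had log2 signals of 2.39 and 2.43 in WT and 2.41 and 2.49 in Bach2KO, so that the genotypes overlapped. The difference was 0.04, and array pairs ranged from -0.02 to 0.10. Its probe is spotted 10 times on each array, all 10 well above background, and the SD over spots was between 0.04 and 0.05. That SD describes single spots within an array and does not measure variation between RNA samples.

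Tgfb3, the third mammalian isoform, was dim, with log2 signals of -4.33 and -4.78 in WT and -4.42 and -4.32 in Bach2KO. Both Bach2KO values lay between or just above the WT values and the genotypes overlapped. Its difference was 0.19, with pairs from -0.09 to 0.46. Over the 9 or 10 usable spots per array the SD was between 0.12 and 0.23, wider than for Tgfb1. With spike-in scaling both differences turned negative (-0.72 for Tgfb1 and -0.58 for Tgfb3) and neither gene was called.

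**Figure D1:**
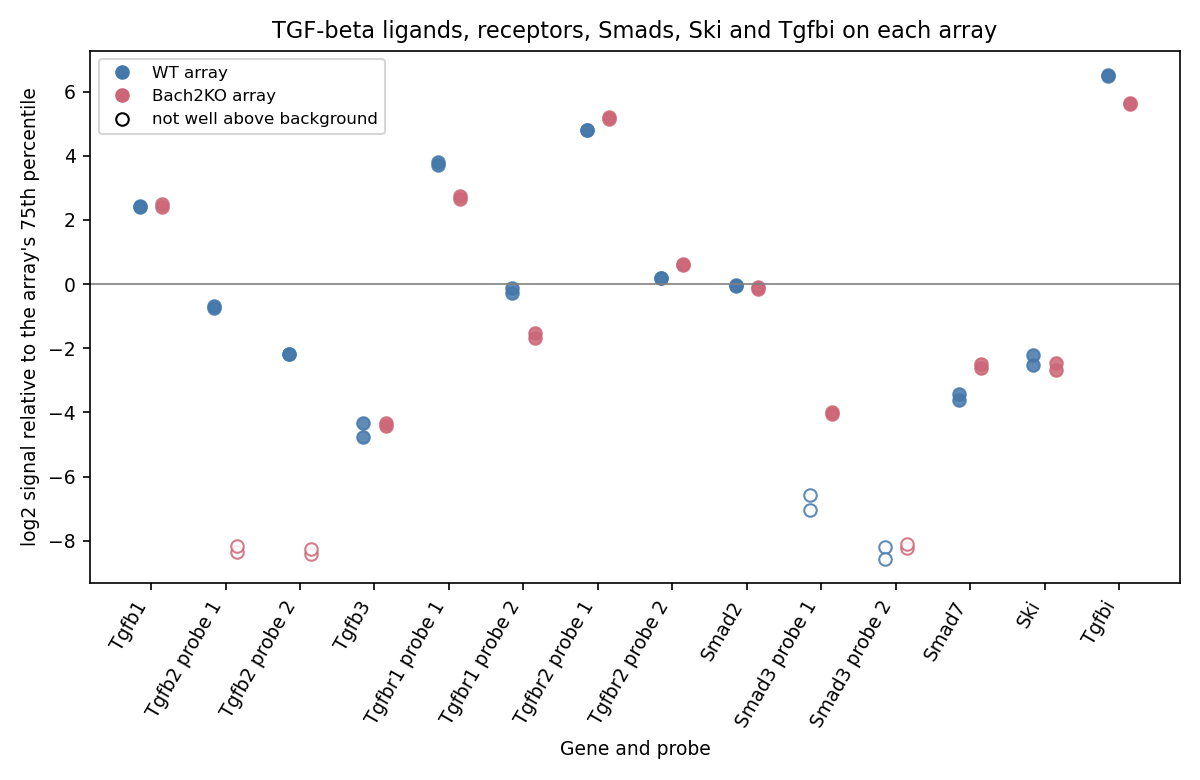
Log2 signal relative to the 75th percentile of the array (y axis) for each probe of the 10 genes (x axis). Each point is 1 array, WT in blue and Bach2KO in red, and open points were not well above background. Both Tgfb2 probes are filled in WT and open near -8 in Bach2KO, and Smad3 probe 1 is open in WT and filled at about -4.0 in Bach2KO.

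Tgfbr1 encodes the type I receptor kinase that phosphorylates the Smads. Its brighter probe (NM_009370) read 3.81 and 3.72 in WT and 2.74 and 2.66 in Bach2KO, and the Bach2KO arrays were lower in every pair. The mean difference was -1.06, which is 2.09-fold, but the closest pair differed by -0.98 and the gene was called neither. The second probe read -0.29 and -0.14 in WT and -1.54 and -1.68 in Bach2KO, a difference of -1.40 that met the rule in all 4 pairs (2.63-fold lower). The probes of Tgfbr1 thus disagreed in the call and shared the direction, and the brighter probe alone was called lower in 8 of the 15 alternatives that use it, with differences from -1.82 to -1.01.

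Tgfbr2 encodes the type II subunit that binds the ligand. Its brighter probe read 4.82 and 4.79 in WT and 5.15 and 5.23 in Bach2KO, a difference of 0.38 with pairs from 0.33 to 0.43. The second probe gave 0.42, with pairs from 0.39 to 0.44. Both probes of Tgfbr2 were slightly higher in Bach2KO on every array, well inside the 2-fold rule, and turned to -0.38 and -0.35 with spike-in scaling.

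Of the receptor-regulated Smads, Smad2 was level and Smad3 was higher in Bach2KO. Smad2 read -0.05 and -0.03 in WT and -0.16 and -0.08 in Bach2KO, a difference of -0.08 that became -0.85 with spike-in scaling and was not called with either. Smad3, which shares the upstream kinase with Smad2 but binds DNA directly, was faint in both RNA samples. Its brighter probe (NM_016769) had processed signals of 9.62 and 15.8 in WT, neither well above background, and of 65.0 and 59.0 in Bach2KO, both well above it. In log2 values these were -7.04, -6.59, -3.99 and -4.05, with no overlap between the genotypes.

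By its bound Smad3 was at least 5.01-fold higher in Bach2KO. With normexp background correction the difference was 1.09 and the call was lost, and with spike-in scaling the bound was 2.95-fold and the call was kept. The other Smad3 probe, assigned to the same transcript, was not well above background on any of the 4 arrays (log2 signals between -8.57 and -8.12) and gives no second reading. Of 290 genes known to be higher only as a bound, 142 had a larger bound than Smad3.

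Some markers of other cells also differed between the RNA samples. The counts below stand beside 8.36% higher and 5.9% lower among all measured genes. Among monocyte and interstitial macrophage markers, 5 of 13 measured were higher, 2 lower (Ccr2 at 4.33-fold and Nr4a1 at 4.19-fold) and 6 neither. With spike-in scaling 4 were higher and 3 lower. The complement gene C1qa was 17.0-fold higher. The summed signal of all these markers was 69.9 and 72.0 times the 75th percentile in WT and 85.2 and 84.7 times in Bach2KO. The gene with the largest change in that sum was Fcgr4 (9.62 to 18.3, of a rise of 14.0), itself not called. With spike-in scaling the Bach2KO sum was 0.706 times that of WT. T cell markers were higher for 4 of 8 measured and lower for 0, with sums of 7.64 and 6.85 in WT and 13.8 and 13.5 in Bach2KO. Most of that rise was Il7r (mean signal 0.00428 in WT and 4.43 in Bach2KO, of a rise of 6.42), and 2 of the 8 were higher with spike-in scaling or with normexp. The T cell receptor gene Cd3d was not well above background in WT and was at least 6.15-fold higher, a call lost with normexp (1.18), and Cd247 was not well above background on any array. The T cell markers not called were Cd3e (0.17), Cd4 (0.30, and 1.20 with its other probe), Cd8a (0.45) and Cd5 (0.64). Fibroblast markers were higher for 2 of 6 measured (Pdgfra and Thy1) with sums of 0.294 and 0.257 in WT and 0.564 and 0.653 in Bach2KO, while Col1a1, Pdgfrb, Dpt and Postn were not well above background on any array. Lum (0.02), Col1a2 (0.66), Dcn (bound 0.48) and Col3a1 (bound 0.77) were not called. Endothelial markers were higher for 2 of 6, with sums of 14.2 and 15.2 against 29.7 and 29.9, and Tie1, Tek and Emcn were not above background. Vwf alone went from a mean signal of 8.47 to 21.7, of a rise in the sum of 15.1, and with spike-in scaling its call was lost (0.59) and 1 of 6 was higher. The other endothelial marker called higher, at 21.2-fold, kept its call in all 16 alternatives. Pecam1 (0.19), Kdr (0.33, and 1.75 with its other probe), Cldn5 (0.07) and Egfl7 (0.56) were not called. Platelet markers were higher for 1 of 3, with sums of 0.657 and 0.694 against 1.41 and 1.37, and Ppbp, Itga2b, Gp9 and Gp6 were not above background. Pf4 made up nearly all of that rise (0.544 to 1.22, of 0.712), and its call was lost with spike-in scaling (0.40), normexp and median centring. With spike-in scaling the Bach2KO sums were 1.11 (T cell), 1.30 (fibroblast), 1.19 (endothelial) and 1.21 (platelet) times those of WT. The part of these cells in the Smad3 difference was not tested.

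The inhibitors did not meet the rule. Smad7, which blocks the type I receptor and is itself induced by TGF-beta, read -3.60 and -3.43 in WT and -2.49 and -2.61 in Bach2KO. It was higher in Bach2KO in all 4 pairs, with a difference of 0.97 and pairs from 0.82 to 1.11, just short of 2-fold. With spike-in scaling the difference was 0.20. Ski, a nuclear corepressor of Smad complexes, read -2.23 and -2.51 in WT and -2.69 and -2.46 in Bach2KO, overlapping values with a difference of -0.21.

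Tgfbi, which encodes a secreted matrix protein named for its induction by TGF-beta, had processed signals of 113936 and 139222 in WT and of 51776 and 47563 in Bach2KO. No spot on the arrays was saturated. The log2 signals were 6.49 and 6.52 in WT and 5.64 and 5.60 in Bach2KO, lower in Bach2KO in all 4 pairs. The difference was -0.88 (1.85-fold), with pairs from -0.92 to -0.85, and it did not reach 2-fold. It was called lower with quantile normalization (-1.09) and with spike-in scaling (-1.65).

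Taking the 10 genes by overlap, 7 had no overlap between the arrays of the genotypes: Tgfb2, Tgfbr1, Tgfbr2, Smad2, Smad3, Smad7 and Tgfbi. The same held for 85.1% of all measured genes, so the share among the 10 genes was below that of all genes.

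**Figure D2:**
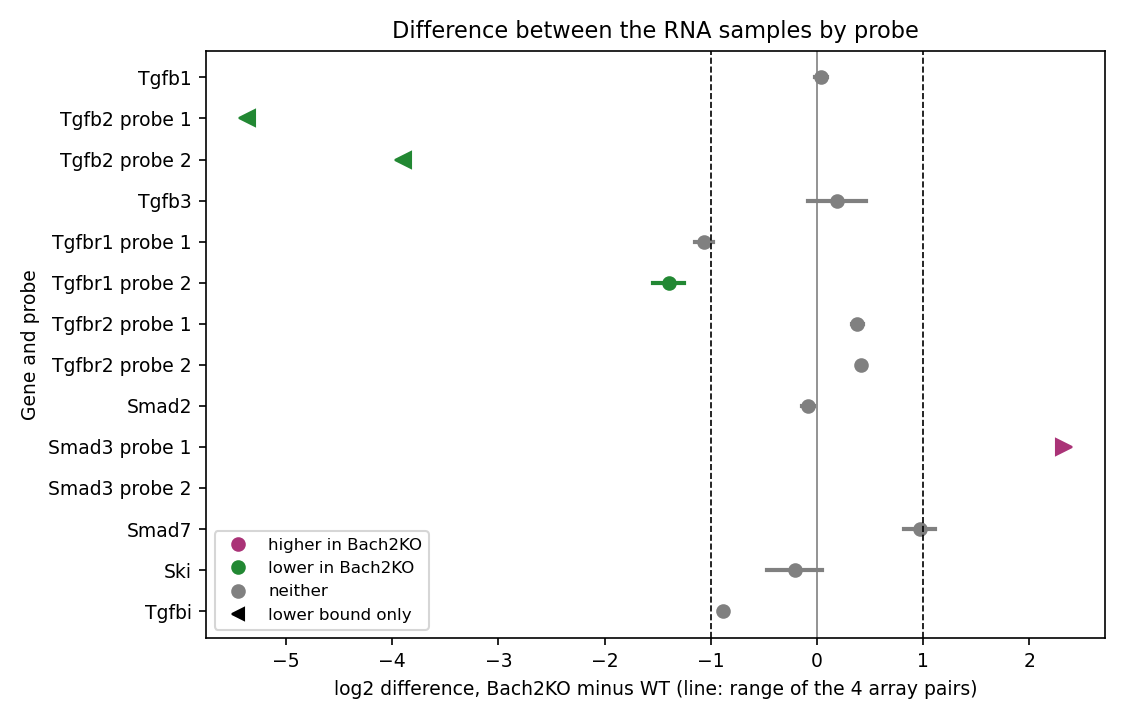
Log2 difference of Bach2KO minus WT (x axis) for each probe of the 10 genes (y axis). Points are differences of the array means with lines over the range of the 4 array pairs, arrows are lower bounds, and dashed lines mark 2-fold. Both Tgfb2 probes lie at or beyond -3.90 and Smad3 probe 1 at 2.33 as bounds, Tgfbr1 lies about the lower dashed line, and Smad3 probe 2 was not measured and has no mark.

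Under spike-in scaling, median centring and quantile normalization Tgfb2 stayed lower and Smad3 higher, and Tgfbr1 was called lower by its brighter probe with all 3.

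The wider pathway was read from a list of 52 other genes, of which 51 were on the array and 43 were measured. Of these 43, 6 were higher in Bach2KO, 9 lower and 28 neither, so 34.9% were called against 14.3% of all measured genes. The list was drawn up with earlier results of these data known, so the comparison of shares is not a test of the pathway. The median difference was -0.10. With spike-in scaling 4 were higher and 15 lower. Among the 43 genes 2 entered through 1 genotype alone. The counts by role that follow stand beside 8.36% higher and 5.9% lower among all measured genes.

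Genes of latency and activation, which hold the ligand in store or free it, were higher for 3 of 8 measured, lower for 1 and neither for 4. Ltbp3 encodes a binding protein that helps latent TGF-beta to be secreted. It read -1.92 and -1.99 in WT and 0.86 and 0.79 in Bach2KO, 6.88-fold higher, and its second probe gave 17.6-fold. Ltbp2, a family member that does not bind latent TGF-beta, fell from -2.21 and -2.09 to -4.35 and -4.42, 4.69-fold lower. Thbs1, which encodes thrombospondin 1, an activator of latent TGF-beta, was not well above background in WT and read -1.95 and -1.89 in Bach2KO, at least 21.6-fold higher (6.13-fold with normexp and 12.7-fold with spike-in scaling). Lrrc32, which encodes the cell surface anchor GARP, was 2.56-fold higher, a call lost with spike-in scaling (0.59) and with normexp (1.07). Integrin subunit genes Itgb6 and Itgb8 and the binding protein gene Ltbp1 were not measured.

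Of 9 other receptors and co-receptors measured, 3 were lower, 1 higher and 5 neither, and with spike-in scaling 5 were lower and 0 higher. Acvrl1, a type I receptor of endothelium that responds to bone morphogenetic proteins and TGF-beta, read 2.51 and 2.55 in WT and 1.36 and 1.43 in Bach2KO, 2.19-fold lower. The activin receptor genes Acvr1b and Acvr2b were 2.25-fold and 2.46-fold lower, and the call of Acvr1b was lost with normexp (-0.74). Eng, the co-receptor endoglin, was 2.07-fold higher, and its call was lost with median centring (0.95), quantile normalization (0.99), normexp (0.88) and spike-in scaling (0.29). Tgfbr3 and Bambi, a co-receptor and a decoy receptor, were not measured.

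Of 4 other Smads measured, 0 were called, although 2 were lower with spike-in scaling (Smad1 at -1.71 and Smad6 at -2.92). Smad4, the shared partner of the receptor-regulated Smads, differed by 0.03 with its brighter probe (pairs from 0.01 to 0.05) and by -0.16 with the other. Smad5, which serves bone morphogenetic protein receptors, differed by 0.23. Smad6, an inhibitory Smad named here after its values were seen, was well above background in WT alone and at least 1.88-fold lower by its bound, short of the rule. It was called lower in 6 of 15 alternatives, among them median centring (bound 2.02-fold), quantile normalization (2.12-fold), spike-in scaling (3.19-fold) and the set without Bach2KO array 2 (2.01-fold), and with normexp its difference was -0.19. Another of the 6 was the mean of a gene's probes, where Smad6, with 1 probe, kept its difference of -2.16. Only its bound moved there, to 3.70-fold, as the lowest signal well above background was taken over gene means. Smad9 was not measured.

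Among 12 inhibitors and turnover factors, 2 were higher, 1 lower and 9 neither. Nedd4l, a ubiquitin ligase that can mark activated Smads for degradation, rose from -3.11 and -3.06 to 0.30 and 0.26, 10.3-fold. The related ligase gene Smurf1 rose 4.64-fold, from -0.59 and -0.52 to 1.72 and 1.61. Pmepa1, which encodes a membrane protein that sequesters Smads and is induced by TGF-beta, fell from 1.91 and 1.93 to -0.33 and -0.35, 4.79-fold, and its second probe gave 4.78-fold. These calls of Nedd4l, Smurf1 and Pmepa1 held in all 16 alternatives.

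Genes that TGF-beta family signals induce in various cells were lower for 4 of 10 measured, higher for 0 and neither for 6. Among all measured genes 5.9% were lower and 8.36% higher, and these 10 come from a list drawn up with earlier results known. Id1, an inhibitor of helix-loop-helix factors, fell from 1.63 and 1.61 to -1.44 and -1.36, 8.13-fold. Its relative Id3 fell from -0.40 and -0.37 to -3.46 and -2.98, 7.14-fold, and both are known above all as targets of bone morphogenetic protein signals. The cell cycle inhibitor gene Cdkn2b, read at -1.48 and -1.42 in WT and -3.42 and -3.39 in Bach2KO, was 3.87-fold lower. Id1, Id3 and Cdkn2b kept their direction and call under every scaling tried. Of the 6 targets that met neither condition, Pparg differed by -0.10. Cdkn1a (0.81), Id2 (0.37), Junb (0.34), Fn1 (0.28) and Ccn2 (0.28) were higher in Bach2KO in every array pair. With spike-in scaling Cdkn1a was at 0.04 and the rest of the 6 lay between -0.87 and -0.40. The median difference of the 10 measured targets was 0.09. Snai1 and Col1a1 were not measured, and the array held no probe named Itgae.

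**Figure D3:**
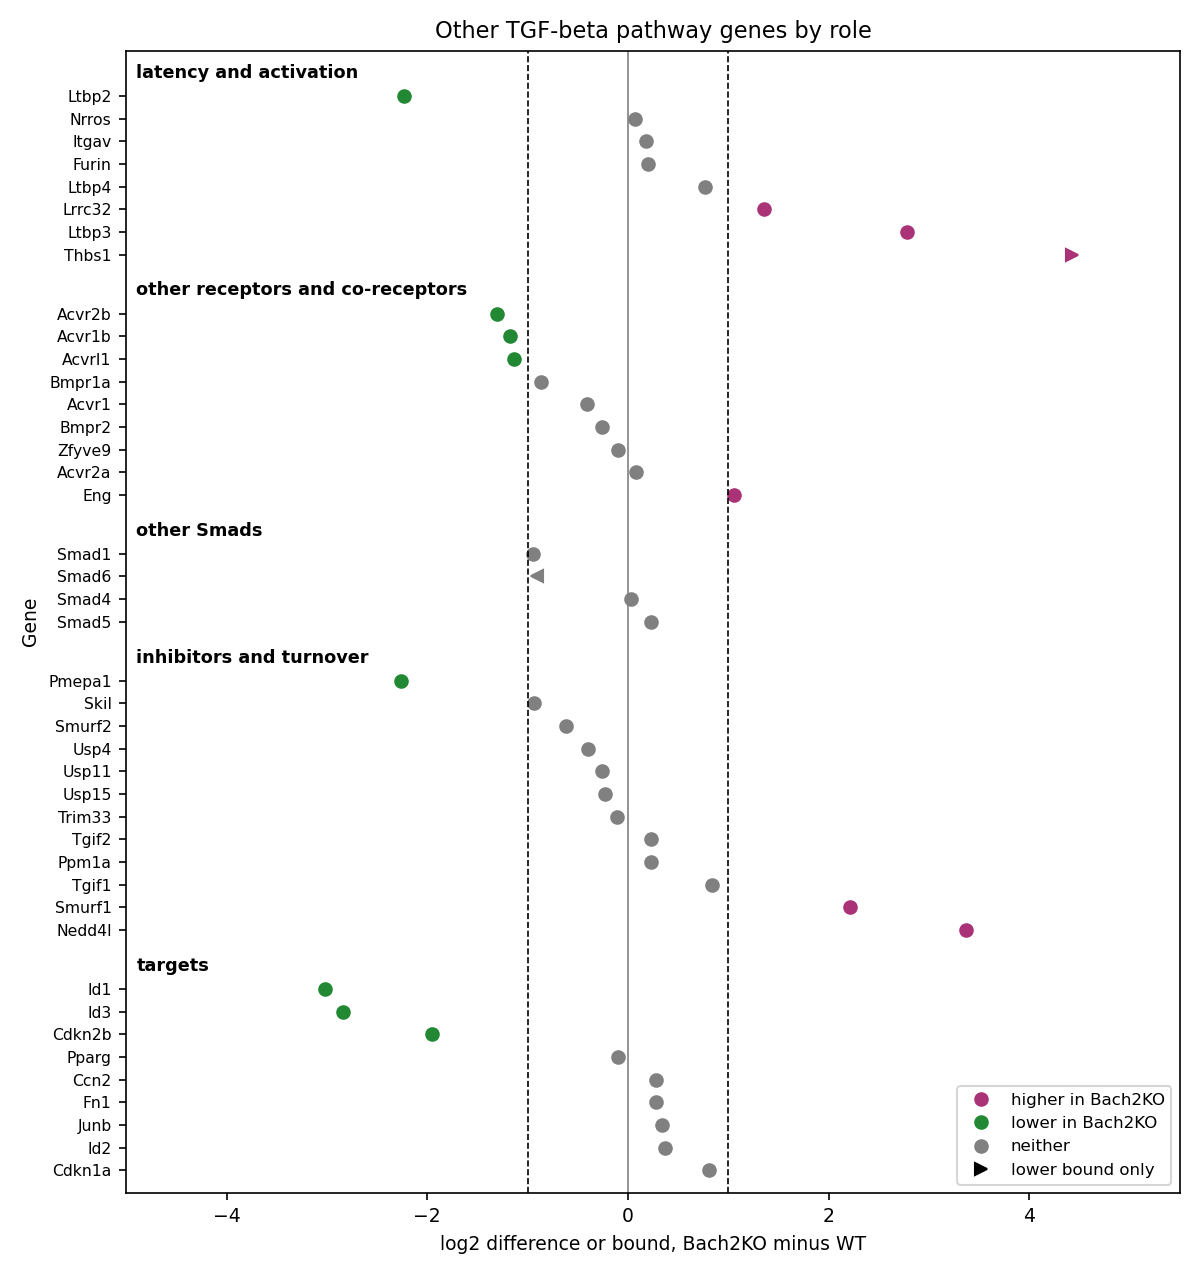
Log2 difference or bound of Bach2KO minus WT (x axis) for 42 of the 43 measured genes of the wider pathway (y axis), grouped by role. Circles are differences of the array means, triangles are lower bounds, colours give the call and dashed lines mark 2-fold. Id1, Id3 and Cdkn2b lie left of the lower line among the targets, and Ltbp3 and Thbs1 lie far to the right among the genes of latency.

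In the promoter windows of the 15 called pathway genes, 8 of which were found in RefSeq, 0 held TGANTCA and 7 held CAGAC, against 6.75% and 42.2% of all windows. The position of the arrays of each genotype on the slide differs with the genotype and cannot be told apart from it.

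**Figure D4:**
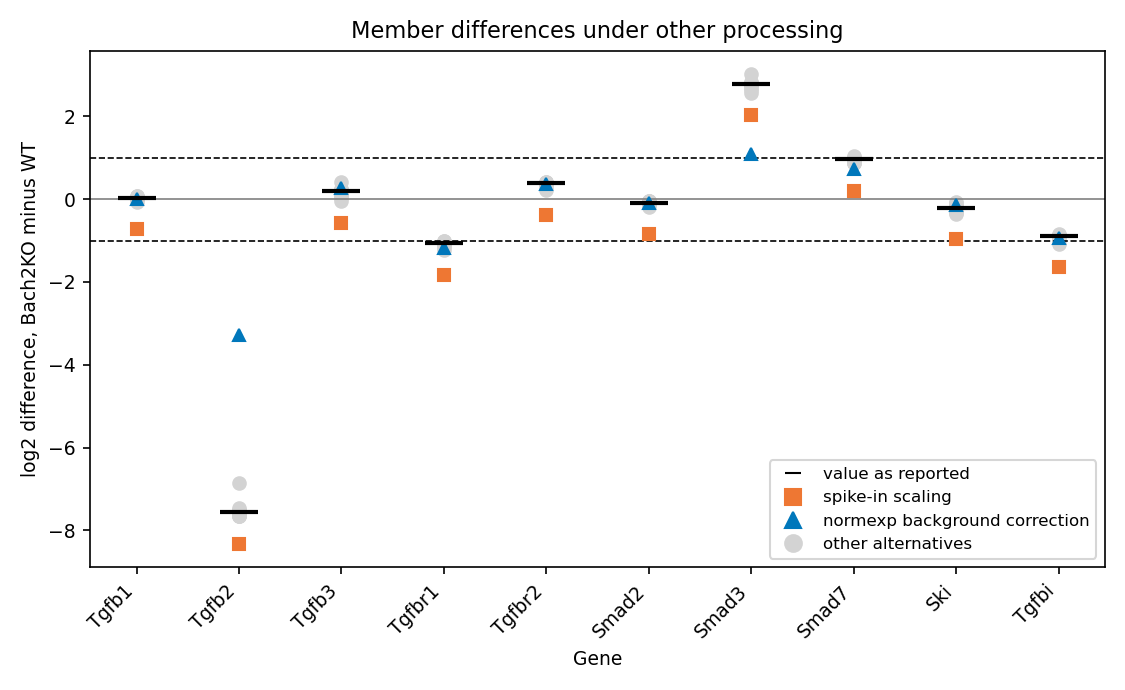
Log2 difference of Bach2KO minus WT (y axis) for each of the 10 genes (x axis) as reported (black bars), with spike-in scaling (orange squares), with normexp background correction (blue triangles) and under the other alternatives (grey). Tgfb2 and Smad3 are drawn at measured differences that include signals not above background, Tgfb2 between -8.32 and -3.27 and Smad3 between 1.09 and 3.02, and dashed lines mark 2-fold.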

How the data were processed

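Spot intensity in the scanner files was made by the authors with Agilent Feature Extraction (version 10.7.3.1 per the file headers, 9.1 per the submitters' processing notes), background-subtracted and detrended, not scaled between arrays. The deposited table holds log2 values. For 39030 probes with 1 spot each column equalled log2 of that array's processed signal less a constant (SD at most 3.5e-07), with no centring of genes and brighter probes higher. Its column medians were -3.58, -3.67, -3.53 and -3.45.

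Control and outlier spots were left out, spots of a probe averaged as log2, and the 75th percentile of each array subtracted (signals of 1267, 1513, 1036 and 979). Per array 27125 to 27918 of 39429 probes were well above background, and the number of arrays limits the precision. A probe counted as measured if both arrays of WT, or both of Bach2KO, were well above background. Symbols came through unversioned RefSeq accessions (GRCm38.p6): 26055 probes had 1 symbol, 0 several and 13374 none. The brightest measured probe stood for its gene. The array was designed on mm9, so no coordinates are given other than those of the Tgfb2 and Smad3 promoter windows (GRCm38.p6).

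Normexp (limma 3.58.1, R 4.3.3) used median spot signals. Named were the 10 genes, up to 4 called genes per pathway role by size (with none called, the 2 brightest) and up to 2 per marker list, and 2 genes that this rule selects are counted but not reported by name here. Uncalled targets and some further marker genes were named in addition, with their values known. The genes and lists were chosen with earlier results of these data known.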

Additional observations from a re-analysis of the deposited data

How the results depend on the processing

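Each result was recomputed under 16 alternatives. The count of the 10 genes called higher (1) became 0 with normexp background correction, 0 with a filter on all 4 arrays being above background, which removes Tgfb2 and Smad3 by construction, and 2 at 1.5-fold, where Smad7 entered. The count called lower (1) became 2 with median centring, normexp, the mean of a gene's probes and 2-fold on array means, 3 with quantile normalization, spike-in scaling and 1.5-fold, and 0 with the filter on all 4 arrays. Leaving out 1 array at a time gave 1 to 2 lower and 1 higher, and Tgfbr1 was called lower without WT array 2 or Bach2KO array 1. Pathway genes called lower (9) became 15 with spike-in scaling and 5 at 3-fold. All genes called, 1264 higher and 892 lower, became 597 and 3295 with spike-in scaling, 2236 and 1933 at 1.5-fold, and 694 and 410 at 3-fold. Tgfb2 was called lower in the 15 alternatives that measured it and Smad3 higher in 14 of 15, and neither changed direction. The causes of these changes were not tested. The faintest readings, of Smad3 and of Tgfb2 in Bach2KO, are limited by signal over background. No paired analysis was possible because the calls come from a rule of size and no test, and the replicate numbers mark parts of different RNA samples.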
